A study of Homo sapiens with 10 samples.

Results

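The unfolded protein response is described here through 10 of its genes in human cardiomyocytes after antisense knockdown of the RNA named CLIPPER. The genes were taken by symbol: the sensors ATF6, ATF6B, ERN1 and EIF2AK3, the transcription factors XBP1, ATF4 and DDIT3, and the endoplasmic reticulum (ER) genes HSPA5, SEL1L and HERPUD1. All 10 were found among the 78932 gene identifiers of the count table, and all 10 were among the 21033 genes tested. The cells were beating cardiomyocytes made from the established embryonic stem cell line H1, with the controls labelled WT and the others GapmeR Knockdown under genotype. A GapmeR at 50 nM, either a control or one targeting CLIPPER, was transfected with a lipid reagent 9 days into differentiation, and RNA was taken 48 hours afterwards. A GapmeR is an antisense oligonucleotide that directs RNase H to cut the RNA it pairs with. Each group had 5 libraries of total RNA, all from this 1 line. The labels do not tell whether replicates were separate differentiations, so p-values measure the spread between these samples, which may be technical.

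The unfolded protein response links the load of unfolded protein in the ER to transcription and translation. IRE1 (ERN1), PERK (EIF2AK3) and ATF6 sit in the ER membrane, where the chaperone BiP (HSPA5) binds them. On stress, IRE1 splices the XBP1 messenger, PERK phosphorylates eIF2alpha, which slows translation while favouring that of ATF4, and ATF6 is cut in the Golgi to release a transcription factor. ATF4 raises DDIT3 (CHOP), while ATF6 and XBP1 raise chaperones and the degradation genes HERPUD1 and SEL1L. Heart muscle uses the ER and the linked sarcoplasmic reticulum for calcium storage as well as folding. Counts per gene do not separate the spliced from the unspliced XBP1 messenger and do not show the translation of ATF4 or the cleavage of ATF6.

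ATF6 and XBP1 act through the ER stress element (ERSE), and its matches in promoters are shown because the genes that carry them did not move alike. ERSE was searched as CCAAT, 9 bases of any kind and CCACG, and its variant ERSE-II as ATTGG, 1 base of any kind and CCACG, on both strands of the 300 bases from 250 before to 50 after each RefSeq start (build GRCh38.p14). Among the 10 members ERSE matched in HSPA5 and XBP1 and ERSE-II in HERPUD1. Of 35116 promoter windows in the RefSeq table, 0.0769% held ERSE and 0.0541% held ERSE-II. The windows of HSPA5 (chr9:125241294-125241593, minus strand), XBP1 (chr22:28800520-28800819, minus strand) and HERPUD1 (chr16:56931892-56932191, plus strand) are printed 5′ to 3′, with the match in capitals.
HSPA5: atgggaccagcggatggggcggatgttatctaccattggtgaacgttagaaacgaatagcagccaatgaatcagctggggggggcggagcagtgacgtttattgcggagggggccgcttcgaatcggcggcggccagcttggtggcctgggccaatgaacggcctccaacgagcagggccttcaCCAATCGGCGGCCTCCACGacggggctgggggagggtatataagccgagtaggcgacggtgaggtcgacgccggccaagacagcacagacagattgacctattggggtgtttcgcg
XBP1: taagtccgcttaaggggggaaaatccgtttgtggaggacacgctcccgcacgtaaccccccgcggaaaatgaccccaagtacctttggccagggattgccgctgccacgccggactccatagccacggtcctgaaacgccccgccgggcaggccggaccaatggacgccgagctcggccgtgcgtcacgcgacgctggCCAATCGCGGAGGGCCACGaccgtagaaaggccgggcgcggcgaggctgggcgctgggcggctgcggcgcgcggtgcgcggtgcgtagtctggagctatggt
HERPUD1: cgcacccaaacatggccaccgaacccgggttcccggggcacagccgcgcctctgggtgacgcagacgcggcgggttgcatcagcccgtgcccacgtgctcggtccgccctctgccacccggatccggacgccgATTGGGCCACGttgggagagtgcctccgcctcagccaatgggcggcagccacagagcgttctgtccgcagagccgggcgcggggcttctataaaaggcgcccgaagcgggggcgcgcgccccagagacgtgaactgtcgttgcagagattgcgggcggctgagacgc

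Counted from the start, with negative positions before it, the match lay at -66 to -48 in HSPA5, at -52 to -34 in XBP1 and at -117 to -107 in HERPUD1. The second window of XBP1, at another start, held no match. The XBP1-type element (UPRE, TGACGTGG) and the amino acid response element of DDIT3 (AARE, ATTGCATCA) matched in the windows of 0 of the 10 members. Over all windows the shares were 0.729% and 0.236%. Whether DDIT3 holds an AARE cannot be decided from this, because one lying further before the start than the window reaches would be missed. Only the exact letters were searched, and the HERPUD1 window holds gttgcatca, which differs from AARE in its first letter. Sequences close to ERSE were missed in the same way. The windows of DDIT3 (ccaatgccggcgtgccact) and HERPUD1 (ccaatgggcggcagccaca) each hold one that differs in its last letter. The HSPA5 window holds ccaatgaacggcctccaac, which differs in its last letters. Near matches were not searched for in full. The short core CCACG, which ERSE, ERSE-II and the complement of UPRE all contain, was in a window of 6 of the 10, namely EIF2AK3, XBP1, HSPA5, ATF4, SEL1L and HERPUD1, against 38.1% of all windows. A match describes letters and does not show a bound site, and the search covers these windows only.

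Libraries held 32879710 to 45052044 counts. On the first principal component the controls lay between 102 and 108, knockdown replicates 3 to 5 between -140 and -119, and knockdown replicates 1 and 2 nearer to the controls at -93.3 and -49.5. Genes of the mitochondrial genome took 10.03% to 12.22% of the counts in controls, 11.5% and 10.9% in knockdown replicates 1 and 2, and 16.0% to 17.5% in the other knockdown libraries. All 10 cardiomyocyte markers were tested. Their summed level was 40700 to 59300 CPM (the depth-normalised read count used throughout) in controls and 14700 to 29900 CPM in knockdown libraries, and 9 of the 10 passed as lower. Of 7 fibroblast and smooth muscle markers 6 passed as lower, with sums of 2090 to 2800 CPM and 1180 to 1690 CPM. Sums over 4 endothelial markers were 27.8 to 49.7 and 7.21 to 17.8 CPM, and over 3 epicardial markers 3.68 to 5.37 and 1.47 to 3.73 CPM, with 2 of 2 tested lower in each list. Endoderm markers summed to 5.19 to 6.83 CPM in controls and 12.1 to 17.8 CPM after knockdown (1 of 2 tested higher), and blood markers to 0.133 to 0.567 and 1.54 to 5.47 CPM (2 of 2 tested higher). Means over all libraries were below 1 CPM for 2 of 4 endothelial, 2 of 3 epicardial, 4 of 5 endoderm and 3 of 3 blood markers. The sums of these lists thus rest on few genes or on low counts. POU5F1, SOX2, NANOG and DPPA4 of the 5 pluripotency markers were below 1 CPM, and that list summed to 0.192 to 1.06 and 3.42 to 5.21 CPM, with 2 of 2 tested markers higher. The part of cell composition in the results was not tested. In bulk RNA, fewer cells of a type and less RNA per cell cannot be told apart. No gene in the annotation is named CLIPPER, so its level was not analysed here.

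The 10 genes split between the directions. In edgeR's quasi-likelihood test at an adjusted p below 0.05, DDIT3, HERPUD1, ERN1 and XBP1 rose, ATF6, EIF2AK3, SEL1L and ATF6B fell, and HSPA5 and ATF4 did not pass. Change was broad, and 79.7% of all tested genes passed, 40.1% higher and 39.6% lower. The members' 8 of 10, with 4 in each direction, was near that background. Their median log2 fold change was 0.32, against 0.0056 over all genes tested and -0.22 over the 14777 coding genes tested, of which 34.7% were higher and 47.0% lower. The groups did not overlap in 6 members, 2 higher and 4 lower, against 67.5% of all genes (33.7% higher and 33.8% lower).

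**Figure D1:**
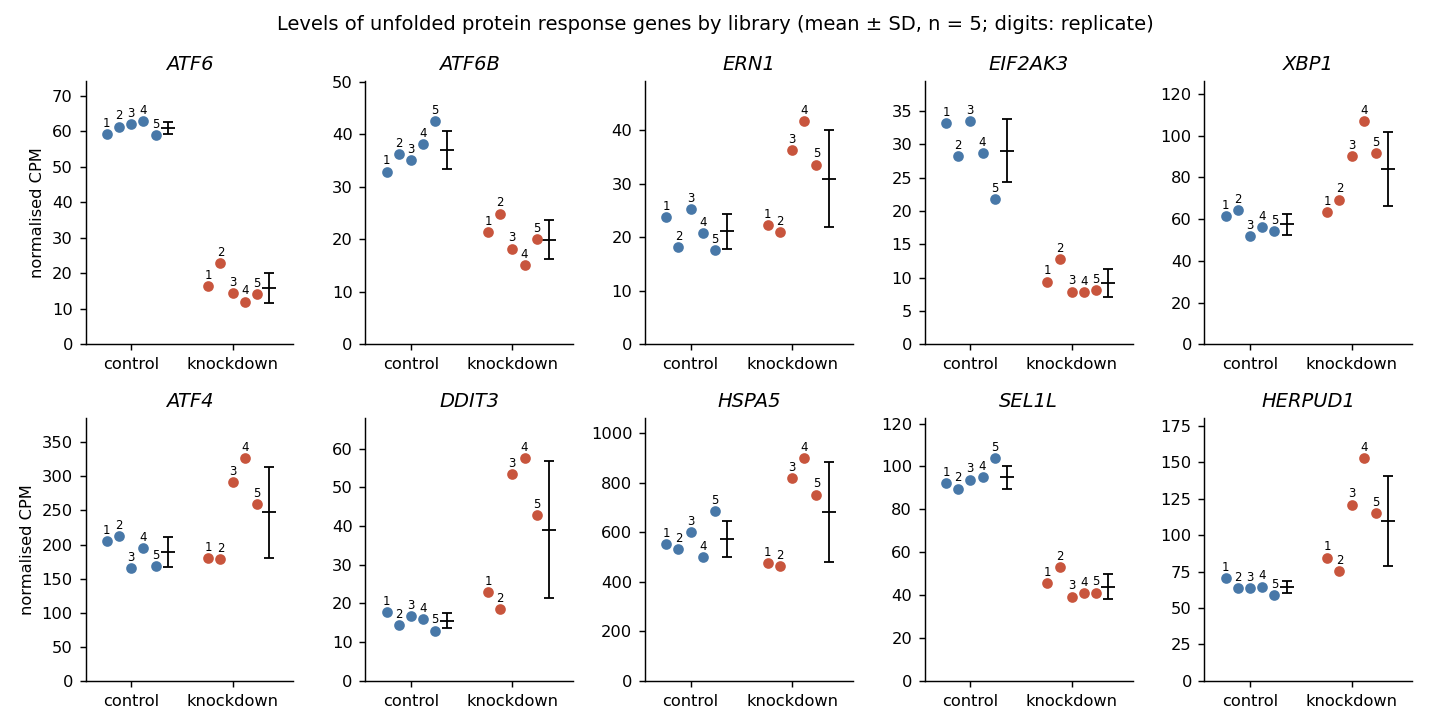
Normalised CPM (vertical axis, from 0) of the 10 genes in each control and knockdown library (horizontal axis). Points are libraries marked with their replicate number, and bars are the mean ± SD (n = 5). ATF6, ATF6B, EIF2AK3 and SEL1L lie lower in all 5 knockdown libraries, and the genes that rose lie highest in knockdown replicate 4.

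ATF6, the sensor that is itself a transcription factor, had the largest fall of the 10. It is ENSG00000118217 at chr1:161766298-161977574 on the plus strand. Its level was 59.2, 61.3, 62.0, 62.8 and 58.9 CPM in control replicates 1 to 5 and 16.3, 22.9, 14.3, 12.0 and 14.1 CPM in knockdown replicates 1 to 5. Every knockdown library was below every control, and the controls lay within 0.09 of each other on the log2 scale. The log2 fold change was -1.93 ± 0.149 (SE), or 3.82-fold lower, with an adjusted p of 2.7e-07.

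ATF6B encodes the paralogue of ATF6, which is cut in the same way. It lies at chr6:32115264-32128253 on the minus strand (ENSG00000213676). Controls held 32.9, 36.2, 35.1, 38.2 and 42.5 CPM and knockdown libraries 21.4, 24.9, 18.2, 15.1 and 20.1 CPM. The groups did not overlap. ATF6B fell 1.85-fold, a log2 fold change of -0.89 ± 0.128 (SE), with an adjusted p of 3.8e-05. ATF6B shares 71 exonic bases with TNXB on the same strand, and its counts there are uncertain. The gene lies in the major histocompatibility complex, and whether any of the 17451 identifiers without an annotation match is an alternate copy of it was not tested. The ratio of ATF6 to ATF6B in normalised counts was 1.39 to 1.80 in control and 0.698 to 0.916 in knockdown libraries.

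EIF2AK3 encodes PERK, the kinase of eIF2alpha (ENSG00000172071, chr2:88556741-88691518, minus strand). It stood at 33.2, 28.2, 33.5, 28.7 and 21.8 CPM in controls and at 9.41, 12.8, 7.91, 7.88 and 8.07 CPM in knockdown libraries. Every knockdown library was lower than the lowest control. EIF2AK3 fell 3.15-fold, by a log2 fold change of -1.65 ± 0.161 (SE, adjusted p = 1.5e-06).

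ERN1, which encodes IRE1 alpha, the kinase and ribonuclease that splices XBP1, went against the other sensors (ENSG00000178607, chr17:64039080-64130819, minus strand). Controls held 23.7, 18.2, 25.2, 20.8 and 17.6 CPM and knockdown libraries 22.2, 20.9, 36.3, 41.7 and 33.6 CPM. Knockdown replicates 1 and 2 lay inside the control range and the other 3 above it. ERN1 rose 1.47-fold, a log2 fold change of 0.55 ± 0.191 (SE), with an adjusted p of 0.018. The call was lost without control replicate 2 (adjusted p = 0.054) or without control replicate 5 (adjusted p = 0.056), and over all alternatives the adjusted p ran from 2.4e-05 to 0.056. The ratio of ERN1 to EIF2AK3 counts was 0.645 to 0.807 in control and 1.64 to 5.30 in knockdown libraries.

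XBP1, the transcription factor made active by IRE1's splicing (ENSG00000100219, chr22:28794555-28800597, minus strand), rose moderately. Its level was 61.3, 64.2, 51.8, 56.1 and 54.2 CPM in controls and 63.3, 69.4, 90.1, 107 and 91.5 CPM in knockdown libraries. Knockdown replicate 1 lay within the control range and the other 4 above it. On the log2 scale the rise was 0.55 ± 0.137 (SE), or 1.46-fold (adjusted p = 0.0026).

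ATF4, the factor translated when eIF2alpha is phosphorylated (ENSG00000128272, chr22:39519695-39522683, plus strand), did not pass. It had 205, 212, 165, 195 and 168 CPM in controls and 180, 179, 292, 327 and 259 CPM in knockdown libraries. Knockdown replicates 1 and 2 were inside the control range and replicates 3 to 5 above it. The log2 fold change was 0.39 ± 0.172 (SE), with a 95% interval from 0.05 to 0.72 and an adjusted p of 0.054. DESeq2 gave an adjusted p of 0.031, upper-quartile scaling 0.0094 and the fits without knockdown replicate 1 or 2 gave 0.016 and 0.0081, and over all alternatives it ran from 3.9e-05 to 0.13.

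DDIT3, which encodes CHOP, the factor linked to cell death in lasting ER stress, had the largest rise of the 10 (ENSG00000175197, chr12:57516588-57521737, minus strand). Controls held 17.7, 14.4, 16.7, 16.0 and 13.0 CPM and knockdown libraries 23.0, 18.5, 53.5, 57.6 and 42.8 CPM. All 5 knockdown libraries were above all controls, and replicates 3 to 5 stood well above replicates 1 and 2. DDIT3 rose 2.51-fold, a log2 fold change of 1.33 ± 0.280 (SE, adjusted p = 8e-04). DDIT3 shares exonic bases with MARS1 (355) and MBD6 (58) on the other strand. The strand setting of the counting is not given in the sources used here, so the counts of DDIT3 carry that uncertainty.

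HSPA5, which encodes BiP, the main ER chaperone of the HSP70 family (ENSG00000044574, chr9:125234853-125241382, minus strand), was the most abundant of the 10 and did not pass. Its level was 553, 531, 602, 500 and 687 CPM in controls and 476, 463, 820, 901 and 753 CPM in knockdown libraries. Knockdown replicates 1 and 2 lay below every control and replicates 3 to 5 above every control. The log2 fold change was 0.25 ± 0.192 (SE), with a 95% interval from -0.13 to 0.62 and an adjusted p of 0.25. The interval does not show that HSPA5 was equal in the groups.

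HERPUD1, a membrane protein of ER-associated degradation and a target of ATF6 and XBP1 (ENSG00000051108, chr16:56932142-56944864, plus strand), rose. Controls held 70.5, 63.8, 63.8, 64.7 and 58.7 CPM and knockdown libraries 84.6, 75.5, 121, 153 and 115 CPM. The groups did not overlap. This was a 1.71-fold rise, 0.77 ± 0.166 on the log2 scale (SE, adjusted p = 0.00092).

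SEL1L, the adaptor of the ubiquitin ligase HRD1 (SYVN1) in the same degradation route (ENSG00000071537, chr14:81471547-81533853, minus strand), fell. Controls held 92.2, 89.7, 93.9, 94.9 and 104 CPM and knockdown libraries 45.7, 53.1, 39.3, 40.8 and 41.2 CPM. No knockdown library reached the control range. SEL1L fell 2.16-fold, or -1.11 ± 0.0953 on the log2 scale (SE, adjusted p = 5.7e-07). The ratio of HERPUD1 to SEL1L counts was 0.562 to 0.765 in control and 1.42 to 3.75 in knockdown libraries.

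The knockdown libraries differed among themselves more than the controls did. The log2 range of all 10 members was wider in the knockdown than in the control group, which held for 71.0% of all genes tested. It was 1.63 in knockdown and 0.44 in control libraries for DDIT3, and 1.02 and 0.26 for HERPUD1. The 6 members with a positive fold change were all highest in knockdown replicate 4, and the 4 that fell were all highest in knockdown replicate 2. Replicate 4 also had the lowest value on the first component and the highest mitochondrial share, and replicate 2 the highest value and the lowest share among knockdown libraries. The part of this in the members' values was not tested. With knockdown replicates 1 and 2 left out together, a setting chosen after seeing the data, 6 members rose and 4 fell, against 41.1% of all genes higher and 41.4% lower. HSPA5 then had a log2 fold change of 0.51 (adjusted p = 0.00023), ATF4 0.62 (3.9e-05), DDIT3 1.71 (3.4e-09), HERPUD1 1.00 (7e-08), ERN1 0.81 (2.4e-05) and XBP1 0.73 (1.1e-06).

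Per kb of merged exons, HSPA5 stood highest in controls with 88.0 ± 11.2 CPM per kb (SD, n = 5), followed by ATF4 with 72.3 ± 8.32, and these ranges overlapped. XBP1 followed with 19.0 (17.1 to 21.2), apart from both neighbours. HERPUD1 (12.7), DDIT3 (11.9), ATF6B (10.2) and SEL1L (9.94 CPM per kb) came next, and neighbours among these overlapped. SEL1L, at its lowest 9.39, did not overlap ATF6. ATF6 had 4.26 (4.13 to 4.40), and EIF2AK3 (1.41) and ERN1 (1.10 CPM per kb) were lowest and overlapped. In knockdown libraries DDIT3 reached 29.9 ± 13.5 CPM per kb, above the mean of XBP1 (27.8) with overlapping ranges, and ATF6 (1.12) stood below the mean of ERN1 (1.62), also with overlap. Per kb of the canonical transcript XBP1 (47.1) stayed above DDIT3 (43.3) in the knockdown, and EIF2AK3 (6.41) and ERN1 (2.67) no longer overlapped in controls. HERPUD1 (22.5) and DDIT3 (17.2) did not overlap in controls on that scale either. In the knockdown SEL1L then overlapped ERN1, and ATF6 overlapped EIF2AK3.

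Fold change in these libraries went with gene span, the annotated length from start to end with introns. The median log2 fold change of tested coding genes was 0.71 at 3 to 10 kb, -0.48 at 30 to 100 kb and -1.30 at 100 to 300 kb. ATF6 (211 kb) and EIF2AK3 (135 kb) stood beside 500 coding genes of nearest span with medians of -1.51 and -1.16, and 30.8% and 27.4% of those genes had a lower value. The RefSeq window of EIF2AK3 (chr2:88627415-88627714) lies well inside its annotated span (chr2:88556741-88691518, minus strand). From that start the gene is shorter, and its standing among genes of that shorter length was not computed. The values of SEL1L (62.3 kb), ATF4 (2.99 kb) and HSPA5 (6.53 kb) also lay among those of like span, with 29.4%, 29.0% and 32.8% of genes lower. For XBP1 (6.04 kb), HERPUD1 (12.7 kb) and DDIT3 (5.15 kb) these shares were 44.2%, 62.4% and 72.4%. By annotated span, ERN1 (91.7 kb) and ATF6B (13.0 kb) departed most from their neighbours. Genes near ERN1 in span had a median of -0.79 and 91.0% of them lay below it. Those near ATF6B had a median of 0.52 and 11.2% lay below it. These shares are descriptions, and the part of span in the members' changes was not tested.

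**Figure D2:**
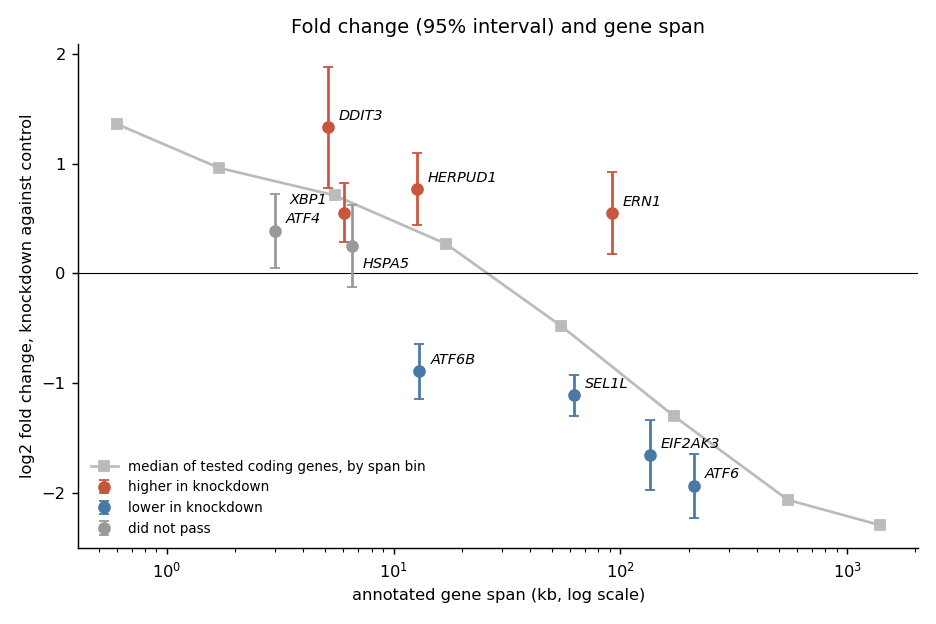
Log2 fold change of the 10 genes with 95% intervals (vertical axis) against annotated gene span in kb (horizontal axis, log scale). Grey squares are medians of all tested coding genes in bins of span. ERN1 lies above the grey line at 91.7 kb and ATF6B below it at 13.0 kb.

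Of 21 tested ER chaperones and folding enzymes, 6 rose (28.6%) and 12 fell (57.1%), and the median was -0.45 on the log2 scale. Among all coding genes tested, 34.7% rose and 47.0% fell and their median was -0.22, so the list leaned the way coding genes did. It did not lean the way of coding genes of like span. Its median span was 18.4 kb, and coding genes of 10 to 30 kb had a median of 0.27. The part of span in this list was not tested. DNAJC3, a cochaperone of BiP also called p58IPK, had 43.4 ± 1.5 CPM in controls and 9.57 ± 3.79 CPM after knockdown (SD, n = 5), a fall with a log2 fold change of -2.18 (adjusted p = 1.4e-06). SIL1, the nucleotide exchange factor of BiP, fell by 2.01 on the log2 scale and ERP44, which retains client proteins, by 1.16. CANX, the membrane lectin calnexin, rose from 591 ± 30.8 to 979 ± 147 CPM (0.73), ERP29 rose by 0.69 and MANF by 0.39.

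Genes with an ERSE or ERSE-II match, chosen for that match, included both directions. Over the members and all lists 11 genes had a match, of which 4 rose, 5 fell and 2 did not pass, close to the shares over all coding genes tested (34.7% higher and 47.0% lower). Some list genes had no promoter window and could not match. The matches of HSPA5, XBP1 and of the chaperones that hold ERSE are set side by side in the motif's own orientation, with the fixed letters in capitals. HSP90B1 holds 2 matches.
HSPA5: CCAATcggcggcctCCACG
XBP1: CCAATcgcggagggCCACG
HSP90B1: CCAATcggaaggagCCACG
HSP90B1: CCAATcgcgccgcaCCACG
CALR: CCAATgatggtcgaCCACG
CANX: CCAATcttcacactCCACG
PDIA6: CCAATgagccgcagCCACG
CRELD2: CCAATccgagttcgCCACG

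Among these, HSP90B1, which encodes the ER chaperone GRP94, stood at 337, 338, 357, 318 and 425 CPM in controls and 207, 229, 220, 213 and 209 CPM in knockdown libraries. All 5 knockdown libraries were lower, by similar amounts (log2 fold change -0.72, adjusted p = 2e-05). The ratio of HSPA5 to HSP90B1 counts, a pair chosen after values were seen, was 1.57 to 1.68 in control and 2.02 to 4.23 in knockdown libraries. CALR, the calcium-binding lectin calreticulin, fell by 1.05 on the log2 scale, CRELD2 by 0.52 and PDIA6 by 0.32, a call lost under upper-quartile scaling (-0.12). SDF2L1 and HYOU1 held ERSE-II, with log2 fold changes of 0.81 (adjusted p = 0.0028) and 0.04 (adjusted p = 0.73). ERO1B, an ER oxidase whose promoter also held ERSE, fell by 1.08. HSPA5, XBP1, HERPUD1, SDF2L1, CANX, HYOU1 and PDIA6 were higher in knockdown replicates 3 to 5 than in replicates 1 and 2, and ERO1B was lower there, while CALR and HSP90B1 lay at nearly one level in all 5.

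**Figure D3:**
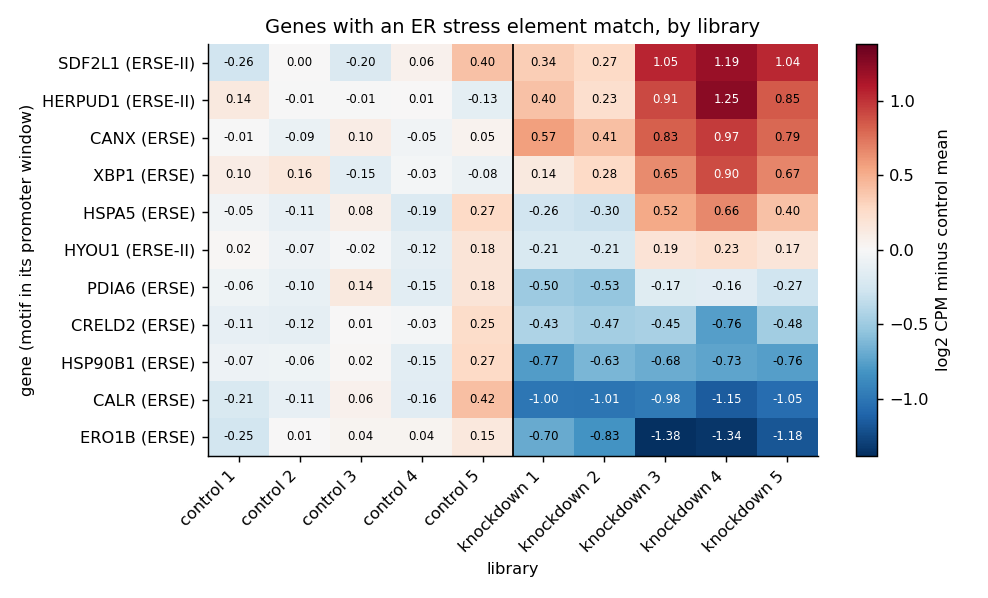
Log2 CPM minus the control mean (colour and printed value) of the 11 genes with an ER stress element match (vertical axis) in the 10 libraries (horizontal axis), ordered by fold change. CALR lies between -1.15 and -0.98 in all knockdown libraries, whereas HSPA5 runs from -0.30 to 0.66.

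Of 20 genes of ER-associated degradation, which moves misfolded proteins to the proteasome, 6 rose (30%) and 10 fell (50%), with a median of -0.30. These shares were near those of all coding genes tested, at 34.7% and 47.0%. The list had a median span of 32.1 kb, and coding genes of 30 to 100 kb had a median of -0.48. HERPUD2, the paralogue of HERPUD1, rose from 8.96 ± 1.11 to 23.6 ± 0.908 CPM (SD, n = 5, 1.40 on the log2 scale, adjusted p = 1.6e-07). The ubiquitin ligase gene RNF5 rose by 0.92 and FAF2, which recruits VCP, by 0.56. The VCP cofactors NPLOC4 and UFD1 fell by 2.31 and 0.79, and the lectin OS9 by 0.72.

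Of 15 tested partners of the sensors 3 rose (20%) and 9 fell (60%), with a median of -0.53, against 34.7% and 47.0% of all coding genes tested. The median span of the list was 44.5 kb, and coding genes of 30 to 100 kb had a median of -0.48. RTCB, the ligase that joins the XBP1 exons after IRE1 has cut them, fell by 0.84 on the log2 scale, from 77.7 ± 2.38 to 43.3 ± 6.26 CPM (SD, n = 5, adjusted p = 6.3e-06). NFYA, a subunit of the factor that binds CCAAT, fell by 0.68 and CREB3L2, a membrane-bound relative of ATF6, by 1.17. EIF2S1, which encodes eIF2alpha, the substrate of PERK, rose by 0.70, and the ATF6 relatives CREB3 and CREB3L4 rose by 0.80 and 0.89. ERN2 was filtered out for low counts.

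The PERK and integrated stress response list had 5 genes higher, 7 lower and 7 that did not pass of 19 (26.3% higher and 36.8% lower), with a median of 0.19. Over all genes tested 40.1% were higher and 39.6% lower, and over coding genes 34.7% and 47.0%. The list had a median span of 20.9 kb, and coding genes of 10 to 30 kb had a median of 0.27. ATF5, a factor related to ATF4, had 14.2 ± 1.35 CPM in controls and 45.2 ± 18.4 CPM after knockdown (SD, n = 5), a rise of 1.67 on the log2 scale (adjusted p = 4.8e-05). PPP1R15B, the constitutive phosphatase subunit for eIF2alpha, rose by 0.98 and EIF2AK1, the heme-regulated eIF2alpha kinase, by 0.46. The other eIF2alpha kinases EIF2AK2 (PKR) and EIF2AK4 (GCN2) fell by 1.38 and 1.00, as did the stress gene SESN2, by 0.70. Without knockdown replicates 1 and 2 the number of higher genes was 9, where 41.1% of all genes were higher. The library medians of the list against controls were -0.63 and -0.21 in knockdown replicates 1 and 2 and 0.40, 0.60 and 0.31 in replicates 3 to 5.

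Genes of the translocon and of secretory entry, through which proteins reach the ER, were higher in 11 (52.4%) and lower in 5 (23.8%) of 21, with a median of 0.25. The shares over all genes tested were 40.1% and 39.6%, and over coding genes 34.7% and 47.0%. The list had a median span of 19.0 kb, and its median was near the 0.27 of coding genes of 10 to 30 kb. SEC61B, the small subunit of the channel, rose from 18.6 ± 1.48 to 42.7 ± 8.88 CPM (1.19), and SSR2 and the signal recognition particle gene SRP72 rose by 0.97 and 0.89. SEC61A1, the channel subunit itself, went from 185 ± 1.67 to 61.1 ± 8.69 CPM (SD, n = 5), a log2 fold change of -1.59 (adjusted p = 6.4e-08). SRP68 fell by 1.46 and the signal peptidase gene SPCS3 by 1.02.

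Of 8 death effectors tied to ER stress, 7 rose, 0 fell and CASP4 did not pass. Their median was 1.05 on the log2 scale, and 40.1% of all genes tested and 34.7% of coding genes were higher. Their median span was 9.85 kb, and coding genes of 3 to 10 kb had a median of 0.71. The part of span in this list was not tested. Several of the death effectors are also targets of p53. BCL2L11, which encodes BIM and is raised by CHOP, rose from 13.6 ± 2.99 to 46.1 ± 1.96 CPM (SD, n = 5, 1.76 on the log2 scale, adjusted p = 2.9e-07). BBC3, which encodes PUMA, rose by 1.96 and the pore former BAK1 by 0.79. The library medians of this list were 0.85, 0.61, 1.23, 1.39 and 1.31 in knockdown replicates 1 to 5 and between -0.16 and 0.18 in controls.

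**Figure D4:**
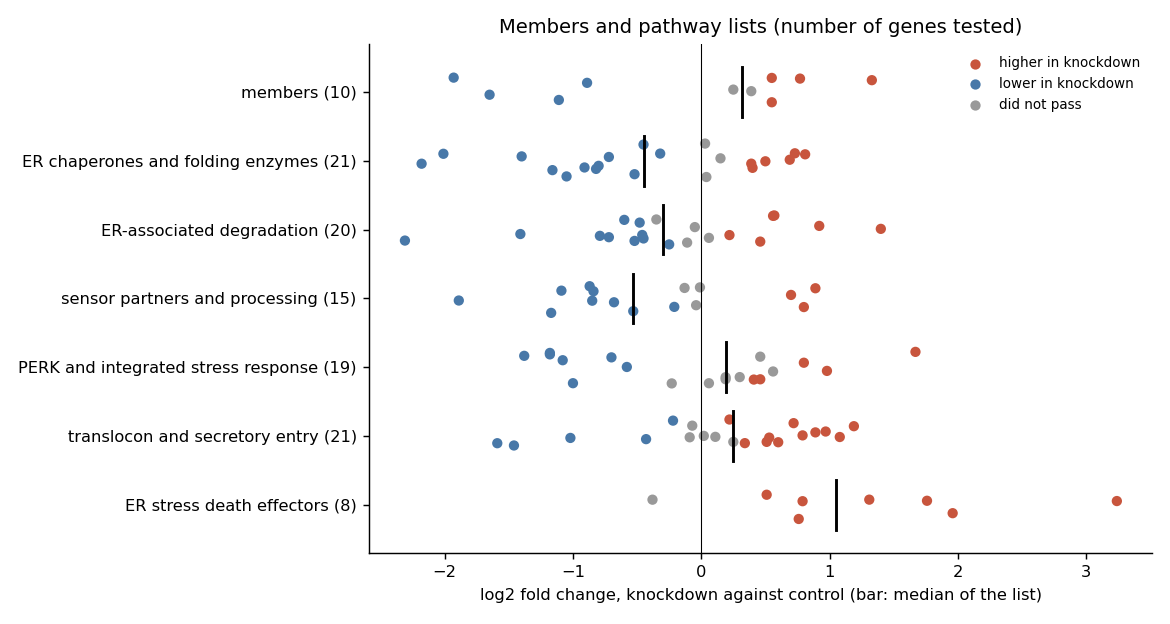
Log2 fold change (horizontal axis) of every tested gene of the 10 members and 6 pathway lists (vertical axis, with the number tested). Colours give the test's call and bars the median of each list, from -0.53 for sensor partners to 1.05 for death effectors.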

How the data were processed

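Total RNA without ribosomal RNA was sequenced in 5 control and 5 knockdown libraries. The authors deposited raw counts of reads per gene for 78932 Ensembl identifiers. Reads were trimmed with Trim Galore 0.65, aligned to GRCh38 with STAR 2.7.0 and counted with HTSeq, per the submitters' processing notes. The labels' design text names GENCODE release 38 for the counting. Whether the identifiers of the count table are those of release 38 was not checked. The strand setting of the counting is not given in the sources used here. Names, positions and spans came from GENCODE release 44 on the same assembly, and 61481 identifiers matched. The other 17451 stayed in library sizes. Columns were matched to samples by title, and 0 columns were unmapped.

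Counts were scaled with TMM factors, filtered with filterByExpr and tested with the robust quasi-likelihood F test of edgeR 4.0.16 in R 4.3.3, group as the only term, with Benjamini-Hochberg adjustment over 21033 genes and a threshold of 0.05. SE is the log2 fold change over the square root of F and 95% intervals take it as normal. CPM use TMM-scaled library sizes, except the marker sums, which use raw totals. TMM assumes that rises and falls balance, so a fold change is not per cell. The test was tried on simulated data, where it recovered 34.3% of 1.5-fold, 80.6% of 2-fold and 100% of 4-fold changes. Of 154 calls there, 11 were false. Far fewer genes were changed in the simulation than passed here, so these shares need not hold for these libraries. Limma 3.58.1 (voom) and DESeq2 1.42.0 were alternatives. All pairs of libraries within a group differed beyond sampling noise (chi-square over its degrees of freedom at least 4.13). Promoters came from RefSeq (GRCh38.p14), with a window for 10 of 10 members. Windows were present for 19 of 21 chaperones and folding enzymes, 16 of 20 degradation genes and 14 of 16 sensor partners. They were present for 16 of 19 genes of the PERK list, 19 of 21 translocon genes and 7 of 8 death effectors. Protein sequences were not used here. Figures were drawn with matplotlib 3.10.9.

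Members and lists were chosen with earlier results of these data known. Named are all members and, per list, up to 3 higher and 3 lower genes with the smallest p, and the 3 genes nearest in profile to the member with the largest rise and to that with the largest fall. HSP90B1, CALR, CRELD2, PDIA6, SDF2L1, HYOU1 and ERO1B were added for their promoter match. The count ratios were chosen after values were seen. The share of other gene pairs whose ratios part the groups was not computed, so these ratios are descriptions only.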

Additional observations from a re-analysis of the deposited data

How the results depend on the processing

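ATF6, ATF6B, EIF2AK3, XBP1, DDIT3, SEL1L and HERPUD1 kept direction and call under all 20 alternatives. ATF4, with a log2 fold change of 0.39, passed with DESeq2's size factors (0.42), upper-quartile factors (0.60), a mean of at least 1 CPM (0.44) and DESeq2 (0.42). Leaving out 1 library gave 0.28 to 0.49, passing without knockdown replicate 1 or 2. HSPA5 passed only without knockdown replicates 1 and 2 together (0.51), where ATF4 had 0.62 and the PERK list 9 higher genes. ERN1 had 0.43 to 0.66 with 1 library left out. The number of lower death effectors was 0 to 1 with 1 library left out. The causes were not tested. Deviations of same-numbered libraries correlated between -0.17 and 0.221, and 2 of 5 knockdown libraries correlated best with their own number, so the numbers were not taken as pairs. With the replicate number as a block the members called stayed at 4 higher and 4 lower, and all genes at 8214 higher and 8211 lower. Upper-quartile scaling moved the median of all genes by 0.20, with 9566 higher and 7277 lower. Of 104 pathway genes 82 kept their call under all alternatives that gave a value, 22 gained or lost it in at least 1, and 0 reversed. CASP4 was below the filter in 1 alternative and had no value there, and it passed as lower without knockdown replicate 2 (-0.52). Depth limited none of the 10 members, whose counts over all libraries were 7399 to 237224.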

Other observations

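The genes whose profile over the 10 libraries lay nearest to the strongest members, by Euclidean distance of log2 CPM centred on the control mean among 9619 coding genes with a mean of at least 10 CPM, are named here. Nearest to DDIT3 were RPS16, a ribosomal protein gene (distance 0.370, log2 fold change 1.32), MRFAP1 (0.371, 1.34) and the cytokine gene MIF (0.418, 1.34). Nearest to ATF6 were the syndecan gene SDC3 (0.112, -1.95), DNAJC5 (0.140, -1.91) and GGA1 (0.175, -1.92). Nearness over 10 libraries in 2 groups is a description only.

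Within the death effectors, PMAIP1, which encodes NOXA, rose by 3.24 ± 0.472 (SE) on the log2 scale, from 4.18 ± 0.683 to 39.5 ± 26.7 CPM (SD, n = 5). The thioredoxin-binding gene TXNIP rose by 1.31 ± 0.369, from 161 ± 46.3 to 401 ± 194 CPM. For the 7 genes of the PERK list that did not pass, levels are given in control and then knockdown libraries. ASNS stood at 62.6 ± 14.2 and 71.3 ± 28.0 CPM, TRIB3 at 7.65 ± 1.07 and 6.55 ± 1.68 CPM, and CHAC1 at 6.93 ± 2.08 and 8.56 ± 2.44 CPM. ATF3 had 34.3 ± 12.0 and 39.1 ± 17.7 CPM, and PPP1R15A 107 ± 31.6 and 157 ± 76.2 CPM. GADD45A had 106 ± 14.1 and 111 ± 44 CPM, and NUPR1 1.11 ± 0.404 and 1.54 ± 0.838 CPM. Without knockdown replicates 1 and 2, PPP1R15A (0.97), NUPR1 (0.85), CHAC1 (0.55) and GADD45A (0.40) passed as higher, and ASNS, TRIB3 and ATF3 did not. Genes linked to XBP1 went both ways. DNAJB9 and SYVN1 had log2 fold changes of 0.50 (adjusted p = 0.022) and 0.57 (adjusted p = 0.0034), EDEM1 and ERLEC1 of -1.41 (adjusted p = 4.6e-06) and -0.60 (adjusted p = 0.00035), and DNAJB11 of 0.15 (adjusted p = 0.37). DNAJB9 lost its call without knockdown replicate 3 or 4, or without control replicate 2, 4 or 5. These genes were chosen after their values were seen.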
